A study of Homo sapiens with 23 samples.

Results

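A high dose of CDK-TCIP1 for a short time was compared with a low dose for a longer time in SUDHL5, an established human line of diffuse large B-cell lymphoma. The libraries were chosen by their titles: 3 of cells given 100 nM CDK-TCIP1 for 2 h and 3 of cells given 30 nM CDK-TCIP1 for 4 h, which makes 6 of the 23 poly(A) RNA libraries of the series. Other groups separated dose from time: 30 nM CDK-TCIP1 for 2 h (4 libraries) and 10 nM CDK-TCIP1 for 2 h (2 libraries). Neg1 and Neg2, the compounds meant as negative controls, were each given at 30 nM for 2 h and for 4 h (4 groups of 2 libraries). Vehicle, DMSO, was harvested at 4 h alone (3 libraries), so a 2 h group set against DMSO also differs from it by hours in culture. All cultures held the same final share of DMSO, and all are of a single cell line.

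CDK-TCIP1 is a bivalent molecule that joins a ligand of BCL6 to an inhibitor that binds CDK9. BCL6 is the transcriptional repressor that keeps B cells in the germinal centre state, and CDK9 is the kinase of P-TEFb, which releases paused RNA polymerase II into elongation. The molecule is meant to bring the kinase to genes that BCL6 represses, and cyclin-dependent kinase inhibition by itself is known to lower short-lived mRNAs first. The comparison asks which mRNAs followed the concentration and which followed the hours of exposure.

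Library totals ran from 17396484 to 26373153 estimated counts. B cell markers were present as the label states, with a sum over 7 markers of 2420 to 2659 CPM (counts scaled to a common library size, with TMM factors) at 100 nM for 2 h and 1848 to 2019 CPM at 30 nM for 4 h. The T cell gene CD2, the myeloid genes S100A8 and S100A9 and the globins HBB, HBA1 and HBA2 had a count of 0 in all 6 libraries. Not all markers of other cell types were absent. LCK, of the T and NK list, had 913 to 1278 counts at 100 nM for 2 h and 750 to 788 at 30 nM for 4 h. DCN, of the epithelial and fibroblast list, had 893 to 983 and 714 to 816. In the 100 nM group, replicate 1 stood apart: 6.73% of the genes above the expression minimum (2 on the average log2 CPM scale) lay more than 0.5 (log2) from the mean of the other replicates, against 2.97% and 4.15% for the others. Its TMM normalization factor of 0.88 was the lowest of the series. The share of reads from mitochondrial mRNAs was 6.11 to 6.84% at 100 nM for 2 h, 5.88 to 6.23% at 30 nM for 4 h and 4.79 to 5.32% in DMSO. In bulk RNA, fewer cells with a transcript and less of it per cell cannot be told apart, and all changes are relative to the bulk of genes.

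The regimens left different transcriptomes. Between 100 nM for 2 h and 30 nM for 4 h, 6721 of 17743 genes were called (37.9%; edgeR quasi-likelihood test, adjusted p under 0.05), of which 3415 (19.2%) were higher and 3306 (18.6%) lower at 100 nM for 2 h. Across all genes tested the median log2 fold change was -0.01. Libraries of the groups did not overlap for 7985 genes (45% of those tested). Unless another pair is named, fold changes below are log2 values of 100 nM for 2 h over 30 nM for 4 h, ± their standard error, with n = 3 libraries in each group.

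PKNOX2, a homeodomain transcription factor, had the largest rise among called coding genes above that minimum that have a symbol and whose libraries did not overlap. Its level was 74.2, 56.2 and 46.6 CPM at 100 nM for 2 h, against 8.6, 15.2 and 11.4 CPM at 30 nM for 4 h. The fold change was 2.33 ± 0.22 (adjusted p = 6.34e-09), and the lowest library of the higher dose was above every library of the longer exposure. ADGRF1, an adhesion receptor of the G protein-coupled class, had 25.4, 17.7 and 12.8 CPM at 100 nM for 2 h, against 4.00, 6.02 and 4.24 CPM at 30 nM for 4 h (1.97 ± 0.26, adjusted p = 1.38e-06). The kinesin-binding protein KIFBP and the centriole gene CCDC78 both rose by 1.61 (SE 0.20 and 0.27). CCDC78 was at 0.97 in counts scaled by transcript length. The other rises among the 10 largest were those of ZPBP2, which acts in sperm binding to the egg (1.56 ± 0.16), the kinase gene PRKCH (1.45 ± 0.18), the metallothionein MT1X (1.44 ± 0.18) and the endosomal sorting nexin SNX6 (1.43 ± 0.33).

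Falls were as large. ZSCAN26, a zinc finger factor with a SCAN domain, had 1.00, 2.40 and 3.08 CPM at 100 nM for 2 h, against 8.82, 8.92 and 9.60 CPM at 30 nM for 4 h (-2.09 ± 0.22, adjusted p = 4.16e-08). AFF1, the scaffold of the super elongation complex that carries P-TEFb, had 3.12, 5.68 and 4.31 CPM at 100 nM for 2 h and 19.6, 20.9 and 20.6 CPM at 30 nM for 4 h (-2.22 ± 0.22, adjusted p = 1.97e-08). In both genes the groups were separated by a wide gap. PLA2G15, a lysosomal phospholipase (-2.04 ± 0.21), PLEKHG1 (-1.97 ± 0.13), and the ephrin EFNA4 (-1.92 ± 0.28) also fell, as did the death receptor FAS (-1.89 ± 0.15), the kinase regulator INKA2 (-1.88 ± 0.26) and ZBTB3, a factor with a BTB domain (-1.87 ± 0.52). With transcript length scaling PLEKHG1 was at -1.16 and INKA2 lost its call, as did MAP9, a microtubule protein, which was at -0.24 there and at -1.87 ± 0.58 otherwise. MAP9 also lost it without replicate 3 of the 100 nM group. Its level varied widely within groups, with 4.64, 20.8 and 5.04 CPM in DMSO. With each regimen set against Neg1 and Neg2 of its own time, MAP9 was at -0.86 ± 0.73 and not called. The 3 other genes among the largest 10 each way have no symbol (ENSG00000142539 and ENSG00000280893 higher, ENSG00000173366 lower) and share their strand and position with named genes, so their estimated counts are uncertain. The call of ENSG00000142539 was lost without replicate 2 or 3 of the 30 nM 4 h group. That of ENSG00000173366 was lost without replicate 1 or 3 of the 100 nM group or replicate 1 of the 30 nM 4 h group. Without replicate 2 of the 100 nM group ENSG00000173366 was at -5.99, and without replicate 1 and replicate 2 of the 30 nM 4 h group ENSG00000142539 was at 8.11 and ENSG00000280893 at 2.73, in that order.

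On GRCh38, with GENCODE 29 bounds, PKNOX2 (ENSG00000165495) occupies chr11:125164687-125433389 on the plus strand and ZSCAN26 (ENSG00000197062) chr6:28267010-28278224, also plus. AFF1 (ENSG00000172493) is at chr4:86935002-87141054 and FAS (ENSG00000026103) at chr10:88990582-89015785, where the opposite strand holds part of ACTA2. The strand setting of the counting is not given in the sources used here, so reads of FAS and ACTA2 may not be told apart. CCDC78, PRKCH, TRIM32, CMPK2, PLPP6, TP53INP1, TNFRSF10B, DDIT3 and CCNE2 also overlap genes of the opposite strand, and EFNA4, MAMDC4 and CD27 overlap genes of their own. Estimated counts cover whole transcripts and point to no single exon or untranslated region.

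**Figure D1:**
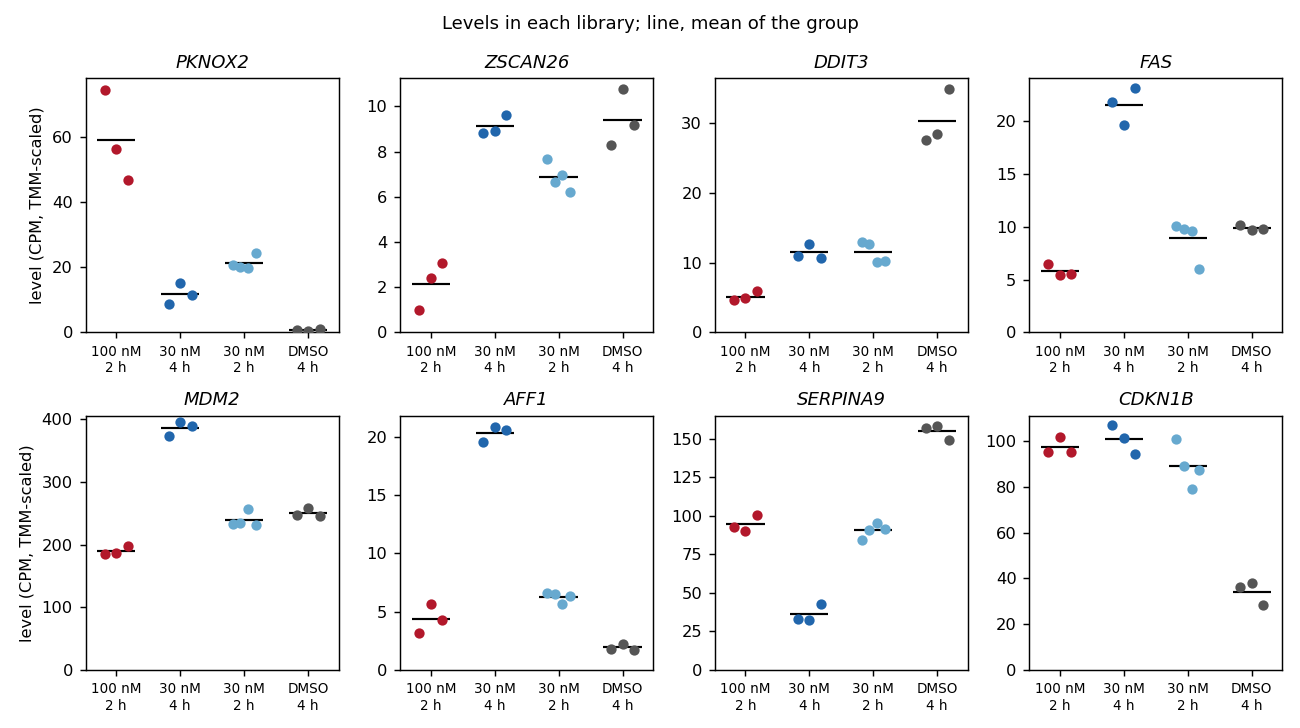
Levels of 8 genes in each library (points, CPM after TMM scaling, linear axes from 0) with the group mean (line), for 100 nM and 30 nM CDK-TCIP1 and DMSO. PKNOX2 and ZSCAN26 stood apart at 100 nM for 2 h, and FAS, MDM2, AFF1 and SERPINA9 stood apart at 30 nM for 4 h. DDIT3 was lowest at 100 nM for 2 h and highest in DMSO, with every CDK-TCIP1 group below DMSO. CDKN1B was alike in both regimens (97.4 and 101 CPM on average).

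Dose and time were then taken apart with the 30 nM 2 h libraries. The dose step, 100 nM over 30 nM at 2 h, called 2287 genes (12.9%), of which 788 (4.44%) were higher and 1499 (8.45%) lower. The time step, 4 h over 2 h at 30 nM, called 3888 genes (21.9%), of which 1828 (10.3%) were higher and 2060 (11.6%) lower. By construction the comparison of the regimens is the dose step minus the time step, and the steps share the 30 nM 2 h libraries, so the classes that follow describe genes and are no separate evidence. Of the 6721 called genes, 2476 were time-led: the time step was called with the sign that gives the difference and the dose step was not. A further 1090 were dose-led, with the reverse pattern, and 1033 were opposed, so that a higher dose moved the gene one way and a longer exposure the other. In 8 genes both steps were called in the same direction, and 2114 had neither step called with a sign that gives the difference. Without replicate 1 of the 100 nM group the dose step called 839 genes (154 higher, 685 lower), 282 genes were dose-led and 525 opposed, so the sizes of these classes rest in large part on that library.

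Dose-led rises had ADGRF1 and CCDC78 at their head, with the rhomboid protease RHBDL1 (1.19 ± 0.22), MAMDC4 (1.06 ± 0.21) and the mitochondrial nucleotide kinase CMPK2 (1.04 ± 0.20, a call lost with transcript length scaling). ADGRF1 had 5.94 to 8.48 CPM in the 4 libraries of 30 nM for 2 h, 1.26 and 1.58 CPM in those of 10 nM for 2 h and 0.24 to 0.52 CPM in DMSO. The group means thus followed the order of the doses. PKNOX2 was opposed: 100 nM was above 30 nM at 2 h (1.48 ± 0.19, dose step), and 4 h was below 2 h at 30 nM (-0.85 ± 0.20, time step). KIFBP had the same pattern (0.99 ± 0.18 and -0.62 ± 0.19).

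Dose-led falls were ZSCAN26, EFNA4, ZBTB3, the lipid phosphatase PLPP6 (-1.87 ± 0.29) and the ubiquitin ligase adaptor KBTBD7 (-1.75 ± 0.27). ZBTB3 had 2.17, 0.06 and 2.46 CPM at 100 nM for 2 h, so the size of its fall rests in part on replicate 2. At 30 nM for 4 h it had 6.05, 5.15 and 6.02 CPM. Neg1 and Neg2 at 4 h averaged 2.56 and 4.86 CPM for this gene. ZSCAN26 had 6.20 to 7.69 CPM at 30 nM for 2 h, so 30 nM at either time lay far above 100 nM, and its time step was not called (0.40 ± 0.18, adjusted p = 0.11). EFNA4 had 1.17, 0.82 and 0.55 CPM at 100 nM for 2 h, 4.23, 2.39 and 3.11 CPM at 30 nM for 4 h and 2.18 to 2.86 CPM at 30 nM for 2 h. The vehicle level of EFNA4, 5.52 to 7.79 CPM, was above all of these.

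Time-led genes differed between 2 h and 4 h at the same dose. SERPINA9, a serpin of germinal centre B cells, had 92.6, 90.3 and 101 CPM at 100 nM for 2 h and 84.4 to 95.5 CPM at 30 nM for 2 h, against 32.9, 32.0 and 42.8 CPM at 30 nM for 4 h. Its dose step was 0.06 ± 0.07 and its time step -1.34 ± 0.08. ZPBP2, PRKCH, MT1X and SNX6 were the other leading time-led rises. In the other direction AFF1 had 5.67 to 6.62 CPM at 30 nM for 2 h and 1.71 to 2.25 CPM in DMSO: it rose with time (1.70 ± 0.19) and its dose step was not called (-0.52 ± 0.21, adjusted p = 0.11). FAM200C (-1.78 ± 0.33), PIGBOS1 (-1.77 ± 0.36, and -2.77 without replicate 3 of the 100 nM group), which overlaps PIGB, and PPP1R3B, which targets protein phosphatase 1 to glycogen (-1.57 ± 0.24), were time-led falls. In FAM200C the dose step (-0.89 ± 0.32) was as large as the time step (0.89 ± 0.28). The same held for PIGBOS1 (-0.89 ± 0.35 and 0.88 ± 0.30). Both are classed as time-led only because the dose step was not called, so their values do not set time above dose.

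Opposed falls included PLA2G15, PLEKHG1, FAS, the ubiquitin ligase TRIM32 (-1.74 ± 0.14) and CSRNP1 (-1.74 ± 0.20). PLEKHG1 had 6.79, 8.26 and 7.57 CPM at 100 nM for 2 h, 34.7, 25.9 and 27.7 CPM at 30 nM for 4 h, 10.2 to 14.6 CPM at 30 nM for 2 h and 19.9 to 20.6 CPM in DMSO. It was thus below DMSO under the higher dose (-1.43 ± 0.13) and above it after the longer exposure (0.54 ± 0.12). Opposed rises included the Mediator paralogue MED12L (1.35 ± 0.09), GNB1L (1.33 ± 0.16) and ERFL (1.32 ± 0.19), of which MED12L was above DMSO at 100 nM for 2 h (0.75 ± 0.09) and below it at 30 nM for 4 h (-0.60 ± 0.09).

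**Figure D2:**
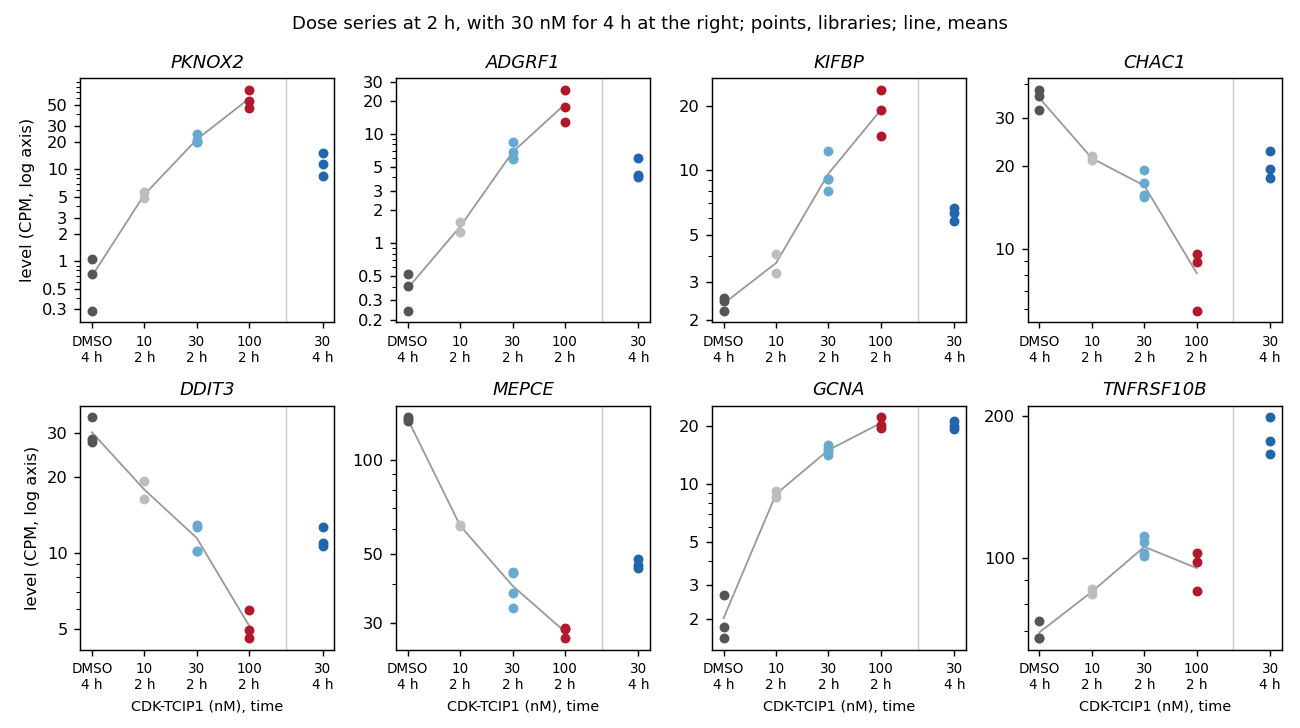
Levels of 8 genes (CPM, log axis) in DMSO, at 10, 30 and 100 nM CDK-TCIP1 for 2 h, and at 30 nM for 4 h to the right of the grey line; points are libraries and the line joins the means. The means of PKNOX2, ADGRF1 and KIFBP were higher, and those of CHAC1, DDIT3 and MEPCE lower, at each higher dose, while TNFRSF10B was higher at 30 nM for 4 h (181 CPM on average) than at any dose at 2 h.

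As a background for the list counts that follow, 3011 of the 9487 coding genes above the expression minimum were higher and 2817 lower at 100 nM for 2 h. Nothing is read from a list whose shares lie near these. Targets of p53 were mostly lower under the short exposure. Of 30 tested p53 targets, 24 fell and 2 rose at 100 nM for 2 h relative to 30 nM for 4 h, and the median was -0.70. In the dose step 6 fell (2 without replicate 1 of the 100 nM group) and none rose, and in the time step 23 rose and 1 fell. By class 17 members were time-led, 6 opposed and none dose-led. Without replicate 1 of the 100 nM group 23 fell and 2 rose. MDM2, which encodes the ubiquitin ligase of p53, had 184, 186 and 198 CPM at 100 nM for 2 h and 373, 395 and 390 CPM at 30 nM for 4 h (-1.03 ± 0.05, adjusted p = 1.44e-12). Its level was 231 to 257 CPM at 30 nM for 2 h and 246 to 258 CPM in DMSO, so the higher dose lay below DMSO and the longer exposure above it.

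FAS, a death receptor that p53 activates, had 6.46, 5.45 and 5.54 CPM at 100 nM for 2 h, against 21.8, 19.6 and 23.2 CPM at 30 nM for 4 h. DMSO had 9.70 to 10.2 CPM and 30 nM for 2 h 6.04 to 10.1 CPM, which puts FAS below vehicle under the higher dose (-0.76 ± 0.15) and above it after the longer exposure (1.12 ± 0.14). CDKN1A, the cell cycle inhibitor p21, had 14.7, 15.9 and 14 CPM at 100 nM for 2 h, 25.7, 30 and 24.6 CPM at 30 nM for 4 h and 18.2 to 21.2 CPM in DMSO (-0.85 ± 0.11 between the regimens). Its dose step was 0.01 ± 0.11, and with transcript length scaling the difference between the regimens was -0.41 and not called. BBC3, the gene of the cell death protein PUMA, had 18, 15.8 and 13.8 CPM at 100 nM for 2 h and 36.8, 34.3 and 30.4 CPM at 30 nM for 4 h (-1.09 ± 0.14). Its libraries at 100 nM for 2 h lay near those of DMSO, 13 to 15.7 CPM.

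SESN1, a sestrin that restrains mTORC1 (-1.09 ± 0.12), TP53INP1, a stress protein (-1.15 ± 0.06), the metabolic phosphatase TIGAR (-1.13) and the translesion polymerase POLH (-1.14) fell by similar amounts. GADD45B, a growth arrest gene, fell by 1.43 ± 0.20 on the log2 scale. ZMAT3, an RNA-binding protein, was above DMSO in both regimens (0.76 ± 0.06 at 100 nM for 2 h, 1.39 ± 0.06 at 30 nM for 4 h). TNFRSF10B, the TRAIL receptor DR5, was too (0.45 ± 0.07 and 1.38 ± 0.07). BAX, the pore-forming BCL2 relative, had 71.9, 69.7 and 61.8 CPM at 100 nM for 2 h and 61.9, 65.0 and 65.2 CPM at 30 nM for 4 h and was not called. The members that rose were TP53I3, an oxidoreductase (0.79 ± 0.30, a call lost with transcript length scaling and without replicate 2 or 3 of either regimen), and CYFIP2, an actin regulator (0.22 ± 0.05). Against DMSO, 10 targets were higher and 11 lower at 100 nM for 2 h, beside 20.6% and 22% of all genes tested (42.6% in either direction). Of the 9487 coding genes above the expression minimum 2584 were higher and 3334 lower there, so the targets lay near that background. At 30 nM for 4 h 21 were higher and 2 lower, beside 17.5% and 19.3% of all genes tested (36.8% in either direction). Of the same coding genes 2036 were higher and 2963 lower there.

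**Figure D3:**
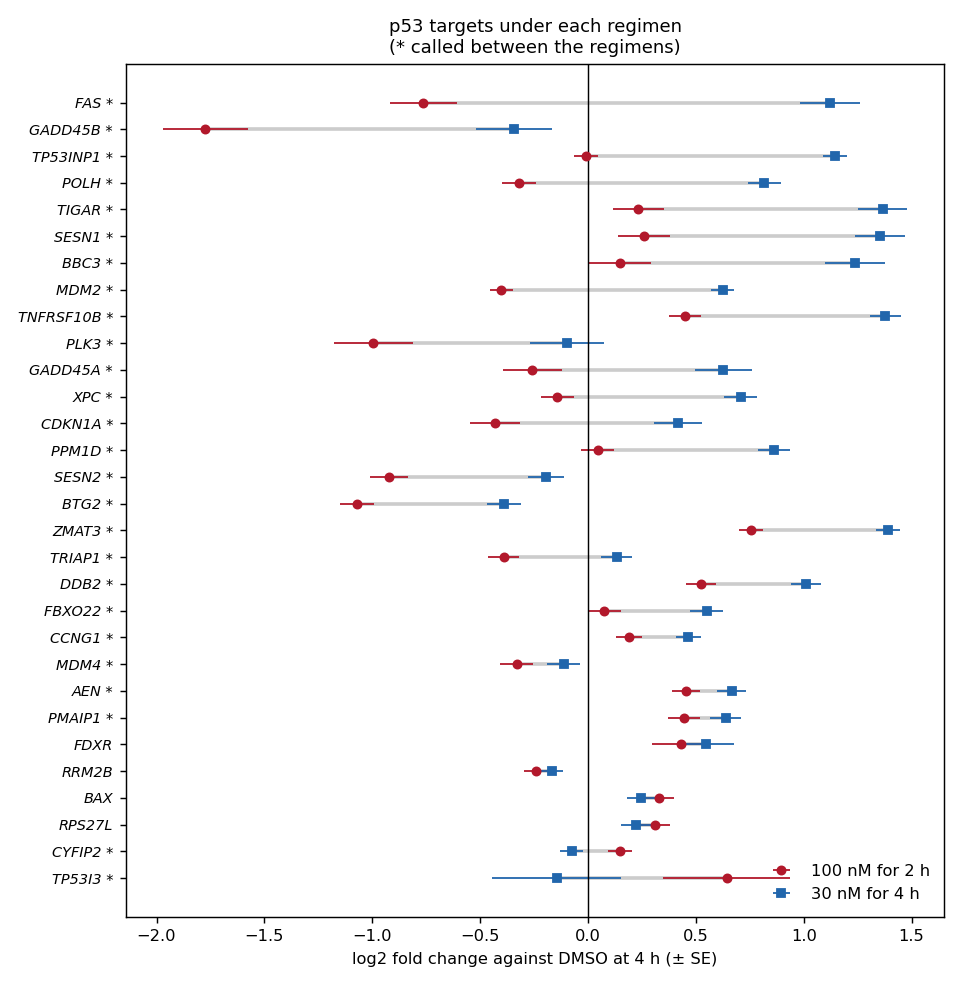
Log2 fold change against DMSO (± SE) of the 30 tested p53 targets at 100 nM for 2 h (red circles) and at 30 nM for 4 h (blue squares), ordered from the largest fall between the regimens at the top; a star marks genes called between the regimens. The longer exposure lay to the right of the higher dose for 26 of the 30 genes.

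Other genes of apoptosis were mixed, in lists that share BBC3, BAX, PMAIP1, FAS and TNFRSF10B with the p53 targets. Of 13 pro-apoptotic members of the BCL2 family, 4 rose and 5 fell (3 without replicate 1 of the 100 nM group, and 3 with transcript length scaling). These shares lay near the background of coding genes. BCL2L11, which encodes the BH3-only protein BIM, had 109, 140 and 136 CPM at 100 nM for 2 h, against 205, 186 and 190 CPM at 30 nM for 4 h (-0.59 ± 0.07). PMAIP1, which encodes NOXA, was at -0.19 ± 0.07 and BMF at -0.46 ± 0.15. Both calls were lost without replicate 1 of the 100 nM group, and that of PMAIP1 also without any other single library of the regimens except replicate 3 of the 100 nM group. BNIP3 (0.39 ± 0.09) and BID (0.37 ± 0.09) rose, BID by 0.58 with transcript length scaling.

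Among 11 anti-apoptotic genes 1 rose and 6 fell (3 without that library, and 3 with transcript length scaling). MCL1, a short-lived survival protein that CDK9 inhibitors are known to lower, had 384, 454 and 456 CPM at 100 nM for 2 h and 875, 860 and 808 CPM at 30 nM for 4 h (-0.98 ± 0.06, adjusted p = 4.31e-12). DMSO had 636 to 693 CPM, so MCL1 was lower than vehicle at 100 nM for 2 h and higher at 30 nM for 4 h. It fell with dose (-0.51 ± 0.05) and rose with time (0.47 ± 0.05). BCL2A1, an NF-kB target, was at -1.76 ± 0.59, a call lost without replicate 1 or 3 of the 100 nM group or replicate 3 of the 30 nM 4 h group, and at -3.20 without replicate 2 of the 100 nM group. The giant inhibitor of apoptosis BIRC6 was the member that rose (0.30 ± 0.07, and 0.59 with transcript length scaling). BCL2 was at -0.14 with an interval of -0.65 to 0.36. Of 23 death receptor and caspase genes 2 rose and 8 fell. The adaptor FADD fell by 1.05 ± 0.14 on the log2 scale, and CASP6 (0.53 ± 0.14) and the cytochrome c gene CYCS (0.36 ± 0.05) rose. CASP6 lost its call with transcript length scaling.

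Stress response genes were more often lower than higher at 100 nM for 2 h. Of 23 members of the unfolded protein and integrated stress responses, 5 rose, 11 fell and 7 were not called, and the median was -0.17. The dose step called 11 lower and 1 higher (7 and 0 without replicate 1 of the 100 nM group), while the time step called 4 higher and 4 lower. DDIT3, which encodes the pro-apoptotic factor CHOP, had 4.57, 4.92 and 5.91 CPM at 100 nM for 2 h, against 11, 12.7 and 10.7 CPM at 30 nM for 4 h (-1.16 ± 0.15, adjusted p = 6.57e-07). The 30 nM 2 h libraries had 10.1 to 12.9 CPM, the 10 nM libraries 19.4 and 16.3 CPM and DMSO 27.5 to 34.8 CPM. It fell at each dose step, and its time step was -0.01 ± 0.12. CHAC1, which degrades glutathione, had 5.90, 8.96 and 9.54 CPM at 100 nM for 2 h and 22.7, 18.2 and 19.6 CPM at 30 nM for 4 h (-1.32 ± 0.14). HERPUD1, of endoplasmic reticulum protein degradation, had 49.0, 58.1 and 59.5 CPM at 100 nM for 2 h and 90.2, 80.6 and 78.7 CPM at 30 nM for 4 h (-0.58 ± 0.08). The chaperone gene DNAJB9 (-1.03 ± 0.17), XBP1 (-0.75 ± 0.09) and ATF3 (-2.04 ± 0.44, with 0.17 to 0.59 CPM at 100 nM for 2 h and 0.85 to 1.75 CPM at 30 nM for 4 h) were dose-led too. DNAJB9 lost its call with transcript length scaling.

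The mTOR inhibitor gene DDIT4 moved with both steps: 23.8, 31.5 and 28 CPM at 100 nM for 2 h, 78.8, 72.3 and 61.2 CPM at 30 nM for 4 h and 33.2 to 45.5 CPM at 30 nM for 2 h (-1.35 ± 0.10). Enzymes of amino acid synthesis in the same list rose: PSAT1 (0.60 ± 0.06) and PHGDH (0.32 ± 0.07) of the serine pathway, and asparagine synthetase, ASNS (0.32 ± 0.06). ATF4, the transcription factor of the integrated stress response, was at -0.04 ± 0.06, with 368, 338 and 332 CPM at 100 nM for 2 h and 358, 359 and 353 CPM at 30 nM for 4 h. Promoters of this list were searched for TGATGNAA, the core of the element that ATF4 binds with C/EBP factors, on both strands. It was present in 5 of 22 promoters with a sequence in the RefSeq table (ATF3, ASNS, CHAC1, SLC3A2 and HERPUD1), against 1.80% of the promoters of tested protein-coding genes and 3.67% of all 27305 promoters in the table. Those of CHAC1 and HERPUD1, which fell, and of ASNS, which rose, are shown because genes that hold a match to the same pattern moved in opposite directions. They run from 250 bases before to 50 after the start on the gene's own strand (RefSeq, GRCh38.p14), with the match in capitals, at chr15:40953221-40953520 (plus), chr16:56931892-56932191 (plus) and chr7:97872359-97872658 (minus).
CHAC1: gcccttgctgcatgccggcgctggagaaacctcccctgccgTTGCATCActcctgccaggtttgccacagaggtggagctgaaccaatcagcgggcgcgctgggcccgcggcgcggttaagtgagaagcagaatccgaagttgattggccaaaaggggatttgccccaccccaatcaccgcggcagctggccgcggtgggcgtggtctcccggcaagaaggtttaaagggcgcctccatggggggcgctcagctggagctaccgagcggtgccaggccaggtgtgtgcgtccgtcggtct
HERPUD1: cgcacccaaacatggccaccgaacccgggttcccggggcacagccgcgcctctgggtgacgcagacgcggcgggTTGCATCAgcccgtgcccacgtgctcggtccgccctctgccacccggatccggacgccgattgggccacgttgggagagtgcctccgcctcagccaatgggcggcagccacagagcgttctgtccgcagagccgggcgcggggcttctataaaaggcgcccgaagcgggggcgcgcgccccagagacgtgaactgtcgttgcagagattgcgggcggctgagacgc
ASNS: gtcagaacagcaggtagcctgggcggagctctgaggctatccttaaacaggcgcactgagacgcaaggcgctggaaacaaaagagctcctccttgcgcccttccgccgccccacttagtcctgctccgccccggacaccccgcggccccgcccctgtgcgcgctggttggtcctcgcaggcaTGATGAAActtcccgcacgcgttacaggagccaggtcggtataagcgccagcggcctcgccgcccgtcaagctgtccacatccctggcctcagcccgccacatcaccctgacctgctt
A match is a description of the letters and no evidence of binding. In ASNS the match reads in the direction of the gene, and in the other promoters it lies on the opposite strand.

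Of 30 immediate early genes, 2 rose, 12 fell and 16 were not called (median -0.32, and -0.12 without replicate 1 of the 100 nM group). The dose step called 11 lower, and 5 without that library. JUN, a subunit of AP-1, had 3.79, 4.27 and 4.31 CPM at 100 nM for 2 h, against 7.32, 6.80 and 6.87 CPM at 30 nM for 4 h (-0.76 ± 0.13, dose-led). The phosphatase DUSP5 (-1.07 ± 0.13), DUSP2 (-0.88) and FOSL2 (-0.85) fell as well, FOSL2 not with transcript length scaling (0.08). FOS went the other way, with 7.18, 7.79 and 10.3 CPM at 100 nM for 2 h and 3.96, 4.69 and 4.09 CPM at 30 nM for 4 h (0.99 ± 0.17, time-led). MYC had 45.9, 58.2 and 58.7 CPM at 100 nM for 2 h and 55.8, 62.4 and 60.2 CPM at 30 nM for 4 h, with DMSO at 135 to 143 CPM: the regimens overlapped (-0.13 ± 0.09, interval -0.32 to 0.05) and both were below DMSO.

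Genes of the transcription machinery divided. Of 35 genes of P-TEFb and elongation, 6 rose and 14 fell, and with transcript length scaling 1 rose and 11 fell. CDK9 had 41, 58.2 and 48.8 CPM at 100 nM for 2 h, 80, 77.6 and 74.8 CPM at 30 nM for 4 h and 45.4 to 50.5 CPM in DMSO (-0.65 ± 0.09). Its cyclin partner CCNT1 was at -0.44 ± 0.07. CDK9 was above DMSO after the longer exposure alone (0.69 ± 0.09, against 0.04 ± 0.09 at 100 nM for 2 h), whereas CCNT1 was above it in both. MEPCE, which caps the 7SK RNA that holds P-TEFb inactive, had 28.7, 28.9 and 26.8 CPM at 100 nM for 2 h, 45.9, 45.2 and 48.3 CPM at 30 nM for 4 h and 134 to 138 CPM in DMSO (-0.72 ± 0.09). HEXIM2, an inhibitor of P-TEFb, fell (-1.23 ± 0.22), while HEXIM1 was at -0.02 ± 0.14. Among the rises were the elongation factor partners EAF2 (0.80 ± 0.14) and RTF1 (0.34 ± 0.07, a call lost with transcript length scaling).

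Of 29 Mediator subunits, 5 rose (2 with transcript length scaling) and 14 fell (median -0.18), with MED18 (-0.82 ± 0.12) and MED19 (-0.76 ± 0.17) lowest. Of 33 histone acetyltransferase, methyltransferase and chromatin remodelling genes, 3 rose and 20 fell (11 with transcript length scaling; median -0.28). EP300, a histone acetyltransferase, had 87.8, 138 and 138 CPM at 100 nM for 2 h, against 218, 174 and 195 CPM at 30 nM for 4 h (-0.69 ± 0.11). Replicate 1 of the 100 nM group held the lowest value. ARID2, of a SWI/SNF complex, was at -0.81 ± 0.08 (a call lost with transcript length scaling), and the remodeller CHD4 (0.59 ± 0.04) and the acetyltransferase KAT2B (0.54 ± 0.07) rose. Among 24 transcriptional kinases, cyclins and polymerase II subunits, 11 rose (7 with transcript length scaling or without replicate 2 of the 30 nM 4 h group) and 7 fell. The largest subunit, POLR2A, had 214, 258 and 251 CPM at 100 nM for 2 h, 160, 139 and 152 CPM at 30 nM for 4 h and 362 to 376 CPM in DMSO (0.68 ± 0.07, time-led). CDK7 (-0.52 ± 0.10) and CDK13 (-0.49 ± 0.05) fell. Of 31 general initiation factors 8 rose and 9 fell, shares near the background of coding genes. TAF5 fell most (-1.03 ± 0.17), and with transcript length scaling 5 factors rose and 5 fell. Without replicate 1 of the 100 nM group 4 of them rose. Of 34 splicing regulators (SR proteins, hnRNPs and CLK kinases) 16 rose and 9 fell (5 without that library), with SRSF3 at 667, 587 and 553 CPM at 100 nM for 2 h and 348, 316 and 294 CPM at 30 nM for 4 h (0.91 ± 0.07) and HNRNPDL at 0.94 ± 0.08.

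**Figure D4:**
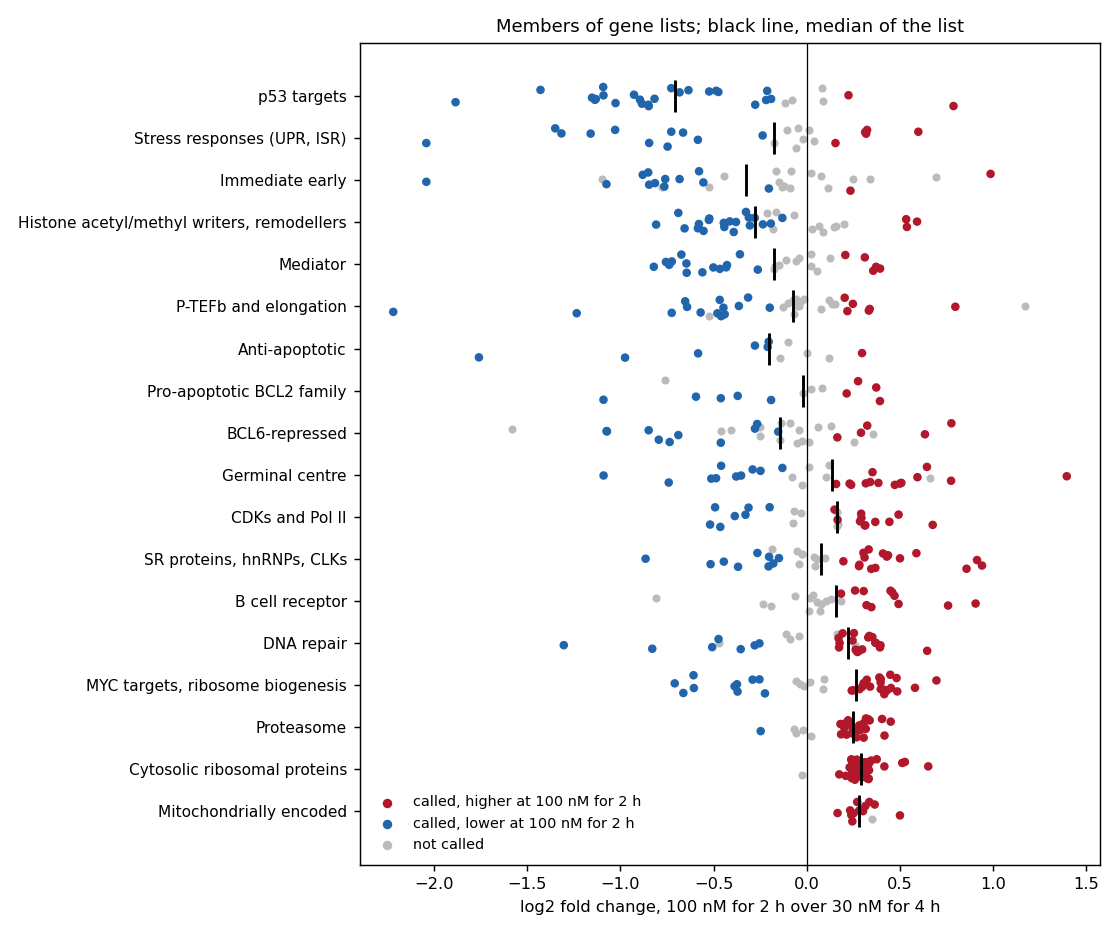
Log2 fold change of 100 nM for 2 h over 30 nM for 4 h for each tested member of 18 gene lists; coloured points were called, grey points were not, and the black line is the median. p53 targets (median -0.70) lay mostly to the left of 0, and ribosomal protein and mitochondrially encoded genes (medians 0.29 and 0.28) to the right.

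Abundant housekeeping mRNAs were slightly higher under the higher dose. Of 57 cytosolic ribosomal protein genes, 56 rose (39 without replicate 1 of the 100 nM group) and none fell, by small amounts (median 0.29). RPL37 had 999, 925 and 776 CPM at 100 nM for 2 h and 573, 501 and 643 CPM at 30 nM for 4 h (0.65 ± 0.16). In the dose step 32 members rose, but 1 did without that library, and the time step called none. Mitochondrially encoded mRNAs were similar, with 12 of 13 higher (median 0.28; 8 without that library). When each regimen was set against Neg1 and Neg2 of its own time, 3 of the 13 were called. Nuclear genes of the respiratory chain had 27 of 39 members higher (16 without that library and 16 with transcript length scaling; median 0.28), and of 31 proteasome genes 26 rose and 1, PSMC6, fell (median 0.25), the call of PSMC6 being lost with transcript length scaling. The part of the mitochondrial share and TMM factor of replicate 1 in these results was not tested.

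Genes of B cell identity and signalling differed between the regimens. Of 7 B cell markers 5 rose, among them EBF1 (0.79 ± 0.08), PAX5 (0.63 ± 0.12), MS4A1 (0.62) and CD79A (0.45). B cell receptor signalling genes had 11 of 24 higher (7 with transcript length scaling) and none lower, led by CD72 (0.91 ± 0.22) and the adaptor BLNK (0.76 ± 0.07). CD72 was at 0.55 without replicate 1 of the 100 nM group and lost its call with transcript length scaling. The time step called 10 genes of the list lower and 1 higher. Germinal centre genes had 14 of 30 higher and 10 lower. Beside SERPINA9, BACH2, a repressor of plasma cell fate, rose (0.78 ± 0.05, and 0.50 with transcript length scaling), and ID3 (-1.09 ± 0.14) and CD38 (-0.74 ± 0.18, a call lost with transcript length scaling) fell. BCL6 had 311, 341 and 354 CPM at 100 nM for 2 h, 338, 335 and 352 CPM at 30 nM for 4 h and 393 to 410 CPM in DMSO, so the regimens overlapped (-0.03 ± 0.05, interval -0.12 to 0.07). Of 31 genes that BCL6 is known to repress 5 rose and 10 fell (3 and 6 with transcript length scaling; median -0.14), among them FOXO3 (-1.07 ± 0.12), with 8.86, 11.8 and 10.7 CPM at 100 nM for 2 h and 20, 23.3 and 22.6 CPM at 30 nM for 4 h, and CEBPB (-1.07 ± 0.10).

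Plasma cell genes split, 5 of 12 higher and 3 lower, with the immunoglobulin joining chain JCHAIN at 288, 234 and 238 CPM at 100 nM for 2 h and 136, 126 and 132 CPM at 30 nM for 4 h (0.94 ± 0.06), CD27 at 1.00 ± 0.07 and TNFRSF17 at -0.89 ± 0.25. Of 16 genes of antigen presentation on MHC class II 8 rose and 1, their activator CIITA, fell (-0.23 ± 0.08, a call lost without replicate 1 or 3 of the 100 nM group or replicate 2 of the 30 nM 4 h group, and -0.77 with transcript length scaling). CD74, the invariant chain, had 2928, 2748 and 2594 CPM at 100 nM for 2 h and 2112, 2218 and 2154 CPM at 30 nM for 4 h (0.35 ± 0.05). PRDM1, the master regulator of plasma cells, was at -0.40 ± 0.69 and CD69 at 0.13 ± 0.11.

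Markers of other cell types were few in the libraries. Of 10 T and NK markers 5 passed the filter on low counts, with a median of 0.58, and 1, LCK, rose (0.83 ± 0.08). The summed level of the list was 60.4 to 76.3 CPM at 100 nM for 2 h, 38.5 to 41.1 CPM at 30 nM for 4 h and 50.8 to 52.9 CPM in DMSO, without overlap between the regimens, of which LCK made up 56.2 to 71.2 and 35.3 to 36.2 CPM in the regimens. Of 9 myeloid markers 2 passed and none was called. Of 6 erythroid markers ALAS2 passed, with 2 to 6 counts at 100 nM for 2 h and 7 to 41 at 30 nM for 4 h (-2.37 ± 0.89, a call lost with transcript length scaling, without replicate 2 or 3 of the 100 nM group and without replicate 1 or 2 of the 30 nM 4 h group). Of 11 epithelial and fibroblast markers 5 passed, with a summed level of 56.4 to 65.5 CPM at 100 nM for 2 h and 42.3 to 45.6 CPM at 30 nM for 4 h, again without overlap. DCN rose (0.65 ± 0.08), and ACTA2, the neighbour of FAS, was at -1.10 ± 0.38 (a call lost without replicate 1 or 3 of the 100 nM group and without replicate 2 of the 30 nM 4 h group).

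The remaining lists had called members in both directions, and nothing is read from those whose shares lie near the background of coding genes (3011 higher and 2817 lower of 9487). MYC targets and ribosome biogenesis genes had 20 of 36 members higher and 10 lower (median 0.27), with PUS7 (0.70 ± 0.10) and RRP9 (0.58 ± 0.08) highest and UTP15 (-0.71 ± 0.10) lowest; the time step called 22 of them lower and 3 higher. DNA repair genes had 19 of 32 higher (9 with transcript length scaling) and 7 lower, with RAD50 at 0.65 ± 0.06 and FANCM, a translocase of the Fanconi pathway, at -1.30 ± 0.13. Genes of G1/S and replication had 14 of 32 higher and 7 lower, with the cyclin E genes CCNE2 (-1.13 ± 0.09, and -0.75 with transcript length scaling) and CCNE1 (-0.72 ± 0.10) lowest. Genes of G2/M had 8 of 32 higher and 12 lower, with TTK at -0.92 ± 0.11 and AURKA at -0.68 ± 0.06. Forkhead factors and kinase inhibitors had 2 of 16 higher and 7 lower. Heat shock genes had 10 of 19 higher and 5 lower, with HSP90AA1 at 0.34 ± 0.06 and BAG3 at -0.78 ± 0.21. Sterol genes had 4 of 26 higher and 9 lower, with ACAT2 at 0.73 ± 0.19 and INSIG2 at -0.87 ± 0.13. NF-kB targets had 3 of 25 higher (1 without replicate 2 and 5 without replicate 3 of the 100 nM group) and 7 lower (median -0.14, and 0.05 without replicate 1 of that group), with TRAF1 at 1.03 ± 0.11 and IRF1 at -0.83 ± 0.13. Interferon-stimulated genes had 7 of 31 higher and 4 lower, with IRF7 at 0.78 ± 0.23 and IFIT2 at -1.13 ± 0.40, and 2 were lower without replicate 3 of the 30 nM 4 h group. The call of IFIT2 was lost without that library, and also without replicate 1 or 2 of the 100 nM group. Of 29 replication-dependent histone genes that passed the filter 1 rose and 1 fell, in a poly(A) library that holds few of their transcripts, and both calls were lost without replicate 1 of the 100 nM group.

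Gene families and gene structure differed too. Among coding genes above the expression minimum, 365 carried a numbered zinc finger name (ZNF, ZSCAN, ZKSCAN or ZFP), a group formed after its values were seen. Of these 16 were higher and 256 lower at 100 nM for 2 h (167 lower with transcript length scaling, 214 without replicate 1 of the 100 nM group), with a median of -0.53. Over all 9487 coding genes above the minimum, 3011 were higher and 2817 lower, with a median of 0.04. Against DMSO the zinc finger genes had a median of -0.40 at 100 nM for 2 h and 0.09 at 30 nM for 4 h. The dose step had a median of -0.32, with 153 called lower and 2 higher (67 and 0 without replicate 1 of the 100 nM group), and the time step one of 0.21, with 99 called higher and 10 lower. Genes with few exons were lower too: the median was -0.48 for 107 genes with 1 exon and -0.48 for 213 with 2 exons, against 0.17 for 1396 with over 20 exons. In genes with 3 to 5 exons it was -0.13, and -0.06 for the 1528 of them that are not in the zinc finger group.

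Long genes stood on the other side. In the 254 genes over 300 kb the median was 0.31, with 57.5% higher and 6.69% lower at 100 nM for 2 h, beside the 3011 higher and 2817 lower of 9487 over all spans. Their time step had a median of -0.26, with 48.4% called lower at 4 h, and their dose step one of 0.07. Genes of 20 to 50 kb had medians of -0.02, -0.01 and 0.02 for the regimens, the dose step and the time step. Leaving out replicate 1 of the 100 nM group or scaling by transcript length moved no median of the regimens over these span and exon bins to the other side of 0 where it was over 0.05 in size. Long intergenic noncoding RNAs (lincRNAs) held a larger share of reads under the higher dose. It was 0.81 to 0.93% at 100 nM for 2 h, 0.58 to 0.65% at 30 nM for 4 h and 0.43 to 0.47% in DMSO. Of 1202 tested lincRNA genes 53 were called higher and 42 lower, beside 37.9% of all genes tested called in either direction. Their median was -0.04, with 574 above 0 and 627 below, so the larger share was not a rise of most lincRNA genes. Of 1449 antisense genes 59 were called higher and 85 lower (median -0.21).

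**Figure D5:**
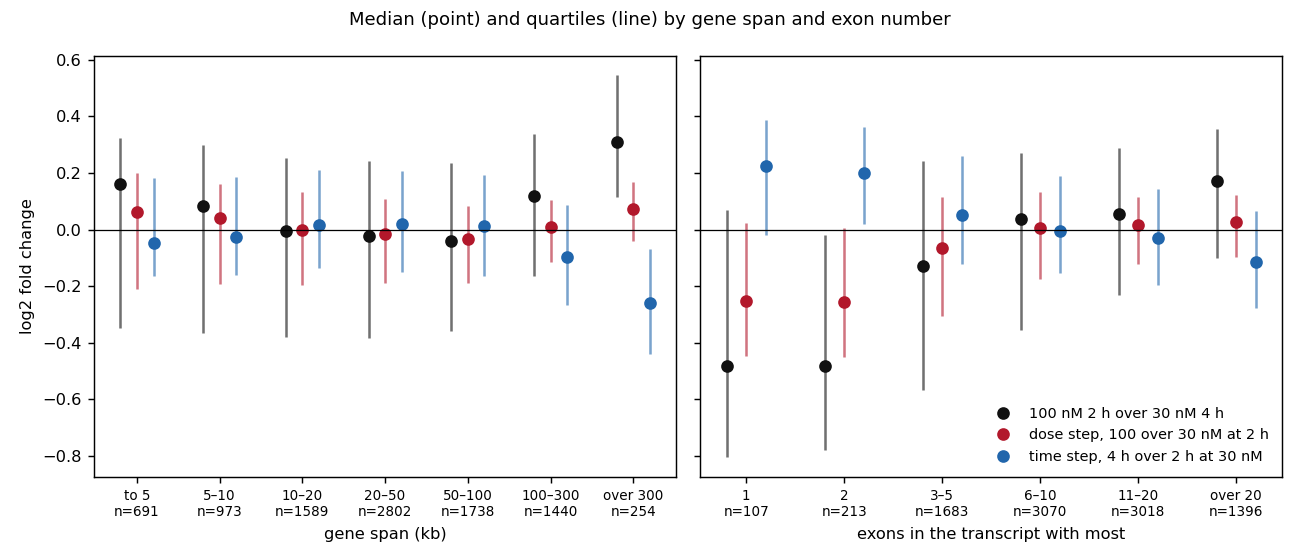
Median (point) and quartiles (line) of the log2 fold change between the regimens (black), of the dose step (red) and of the time step (blue), by gene span and by exon number, in coding genes above the expression minimum. Genes over 300 kb lay above 0 between the regimens (0.31) and below it in the time step (-0.26), and genes with 1 or 2 exons lay below 0 between the regimens (-0.48 each).

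Many genes had like levels in both regimens. For 1919 genes the 95% interval of the difference between the regimens lay within -0.5 to 0.5 and both regimens were called against DMSO in the same direction, 948 above and 971 below it. GCNA, a germ cell gene, had 22.4, 19.6 and 20.4 CPM at 100 nM for 2 h, 19.4, 20.1 and 21.3 CPM at 30 nM for 4 h and 1.58 to 2.64 CPM in DMSO. The regimens overlapped (0.04 ± 0.14, interval -0.24 to 0.32) and were both far above DMSO. The dose step and the time step from 30 nM for 2 h were of like size there (0.47 ± 0.13 and 0.43 ± 0.13). The chaperone partner HYPK, RFX7, FAM229A and the growth factor PSPN were the others furthest above DMSO, though HYPK overlaps SERF2. RFX7 varied among the controls, with 6.68 to 13.7 CPM in DMSO and group means of 8.84 to 18.7 CPM under Neg1 and Neg2. Its means in the regimens were 37.5 CPM at 100 nM for 2 h and 34.7 CPM at 30 nM for 4 h. CDKN1B, the inhibitor p27, had 95.2, 102 and 95.2 CPM at 100 nM for 2 h, 107, 102 and 94.2 CPM at 30 nM for 4 h and 28.4 to 37.8 CPM in DMSO (-0.05 ± 0.08, interval -0.22 to 0.12). On the other side the lymphoid factor IKZF3 had 204, 210 and 206 CPM at 100 nM for 2 h, 196, 201 and 202 CPM at 30 nM for 4 h and 523 to 546 CPM in DMSO (0.05 ± 0.04, though 0.30 and called with transcript length scaling). PTAFR, HEY1, METTL1 and HEXIM1 were the others furthest below, PTAFR with a small called difference (-0.32 ± 0.08, lost with transcript length scaling). APOLD1 (-0.61 ± 0.16, called) and ADAMTSL4 (-0.61 ± 0.26, not called) were far above DMSO in both regimens, by 3.96 and 3.97 at 100 nM for 2 h and by 4.56 and 4.58 at 30 nM for 4 h.

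Harvest time differs between the regimens, and Neg1 and Neg2 give it in cells without CDK-TCIP1. Between 4 h and 2 h of Neg1 and Neg2 no gene was called (edgeR, 0 of 17743, 0%; 1394 at an unadjusted p under 0.05), 7 were by DESeq2 and 113 without replicate 2 of Neg2 at 2 h. With each regimen set against Neg1 and Neg2 of its own time, 5287 genes were called between the regimens (29.8%), 2714 (15.3%) higher and 2573 (14.5%) lower. On this scale PKNOX2 was at 3.12, AFF1 at -2.69, FAS at -1.68 and MDM2 at -1.11. All 4 kept their direction. Of the p53 targets 22 fell and none rose, of the stress genes 11 fell and 4 rose, and of the ribosomal protein genes 55 rose. The lower dose step, 30 nM over 10 nM at 2 h, called 465 genes (2.62%), 142 higher (0.8%) and 323 lower (1.82%). That count was 112 and 52 without replicate 1 and replicate 2 of the 10 nM group, and 298 and 273 without replicate 2 and replicate 4 of the 30 nM 2 h group. In it PKNOX2 was at 1.99, ADGRF1 at 2.25 and DDIT3 at -0.63, all called, and FAS was at -0.19 and MDM2 at -0.03, neither called.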

How the data were processed

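Poly(A) RNA of SUDHL5 cells was sequenced in paired ends. The submitters' processing notes name kallisto, cutadapt, FastQC and DESeq2; versions, transcript set and strandedness are not stated there. Per library the authors deposited a kallisto table with estimated counts and TPM for 227912 transcripts. TPM entered the alternative with counts scaled by transcript length. Transcripts were matched to GENCODE 29 (205964 matched; those without a gene held 1.16 to 1.28% of counts and were left out), and the deposited estimated counts were summed per gene and rounded. An estimated count shares a read among transcripts, so overlapping genes are less certain.

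edgeR 4.0.16 (R 4.3.3; TMM, filterByExpr, quasi-likelihood F test, Benjamini-Hochberg over 17743 genes) was fitted to all 23 libraries with 1 coefficient per group and 14 residual degrees of freedom. A gene was called at an adjusted p under 0.05. A standard error is the absolute log2 fold change over the root of F, and intervals are at 95%. The fit was tested on simulated data. Alternatives were RLE size factors, no filter, DESeq2 1.42.0, the compared groups alone, length scaling, the replicate number as a block, and leaving out each library. Replicates differed by more than sampling noise (chi-square over degrees of freedom, 4.32 to 14.2), so none was counted as a repeat. The labels do not say that replicates were separate cultures, so p-values set a difference against the spread between these samples. For each gene that spread is 1 estimate shared by all groups. By the same chi-square measure the 100 nM group had 6.30 to 14.2 and the 30 nM 4 h group 5.52 to 6.86, so the shared estimate may be too small for the former. Intervals cover the spread between libraries, and the depth of 17396484 counts or more limits genes near 1 CPM.

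The regimens, their comparisons, the 36 lists and the naming rule were chosen with earlier results of these data known. The rule first took called coding genes above an average log2 CPM of 2 whose groups did not overlap. These were the 10 largest changes each way and the 5 largest each way of each class. It also took the 5 matched genes furthest above and below DMSO, coding, above that level and without overlap with DMSO. Those needed no call between the regimens. The 2 largest called changes each way of each list and 28 fixed genes were taken at any level, with or without overlap. Other list members named in the text were chosen after their values were seen.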

Additional observations from a re-analysis of the deposited data

Results flagged for a closer look

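Of 171 named genes, 20 were called on opposite sides of DMSO in the regimens. The comparison between the regimens tests their difference from each other, not their side of DMSO. Most of the 171 were taken for a called difference between the regimens, which favours such genes. The share over all genes was not counted, so the 20 describe the named genes alone. Below DMSO at 100 nM for 2 h and above it at 30 nM for 4 h were PLEKHG1 (a log2 fold change of -1.97 between the regimens), FAS (-1.89), FOXO3 (-1.07), MDM2 (-1.03), MCL1 (-0.98), CDKN1A (-0.85), SLX4 (-0.83), BCL2L11 (-0.59), GTF2B (-0.57) and CDK13 (-0.49). Above DMSO at 100 nM for 2 h and below it at 30 nM for 4 h were MED12L (1.35), FOS (0.99), JCHAIN (0.94), LCK (0.83), EBF1 (0.79), BACH2 (0.78), DCN (0.65), KAT2B (0.54), CYCS (0.36) and RRM1 (0.32). DMSO was harvested at 4 h, so part of the difference of the 2 h group from DMSO may be time in culture.

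In the 4 libraries of 30 nM for 2 h, which both steps share, 1 library stood far from the others for 12 of the 171 genes. The gap to the nearest library, as a share of the range of log2 CPM, was 0.956 for FANCM, 0.921 for IRF7, 0.911 for MT-ND6, 0.904 for FAS, 0.901 for MT1X, 0.890 for CYCS, 0.870 for H2AC6, 0.859 for DNAJA1, 0.849 for CCNE2, 0.846 for MDM2, 0.842 for PIGBOS1 and 0.840 for RPL37, each above Dixon's critical value at 95%. Chance alone flags about 1 in 20 genes.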

How the results depend on the processing

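The comparison of the regimens called 5490 to 6555 genes without single libraries, against 6721, and 6730 with the replicate number as a block. It called fewer, 4554, with counts scaled by transcript length. Same-numbered libraries of the regimens correlated at -0.03, -0.01 and 0.11 in their deviations. In the 100 nM group replicate 1 correlated best with replicate 3 of the 30 nM 4 h group, and so did replicate 3. With 3 libraries a group, these correlations cannot tell whether same-numbered samples shared a batch. Counts moved by over 1.5 times were these. With counts scaled by transcript length the dose step called 840, the time step 1882, the contrast net of Neg1 and Neg2 3030 and the lower dose step 82 genes; 521 genes were dose-led, 1420 time-led, 257 opposed and 1087 matched. The dose step called 1205 genes with its own groups alone, and 839 to 2823 without single libraries, lowest without replicate 1 of the 100 nM group. Without single libraries 282 to 1423 genes were dose-led, 1952 to 3041 time-led and 525 to 1183 opposed. Classed by the larger step alone, 2834 were dose-led and 3887 time-led, since no step then needs a call. Between 4 h and 2 h of Neg1 and Neg2, 196 genes were called with no filter, 7 by DESeq2 and 0 to 113 without single libraries, against 0. The lower dose step called 786 with no filter, 753 by DESeq2 and 52 to 431 without single libraries, against 465, and was lowest without replicate 2 of the 10 nM group (52). Bounds of 0.25 and of 1 gave 576 and 2984 matched genes. Apart from what the construction of an alternative shows, the cause was not tested. Of 153 called named genes 117 stayed called in every alternative. The group of zinc finger genes, the bins of span and exon number and their alternatives were chosen after seeing the data. Among the 171 genes taken by the naming rule no called gene changed direction, and 12 values of uncalled ones changed sign. FOSL2, outside that rule, was at 0.08 with transcript length scaling, against a called -0.85. Depth limits genes near 1 CPM, such as ATF3.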
